A study of Mus musculus with 3 samples.

Results

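Ankyrins, spectrins and the adaptor proteins that tie them to actin were described in sorted cells of dorsal root ganglia, which hold the cell bodies of sensory neurons, from mouse embryos. The 9 genes were chosen by function, as a named list, though with earlier results of these data known. They were Ank1, Ank2, Ank3, Sptan1, Sptb, Sptbn1, Sptbn4, Epb41l3 and Add1, out of 41388 deposited genes. All 9 were found and all 9 passed the filter on low counts. The study deposited 3 RNA-seq libraries, A, B and D, which form 1 group with no control population. Each was made from ganglia of spinal levels T11 to S1 (written TS11 in one label of library D) of C57BL/6 embryos at 14.5 dpc, sorted for the fluorescence of a Ret-EGFP reporter. Ret encodes a receptor tyrosine kinase of GDNF family signalling. The genotype label writes the reporter as the transgene Tg(Ret-EGFP)SJ, whereas the series text describes EGFP inserted at the Ret locus in heterozygotes, so the state of the Ret alleles is not settled here. Library A pooled 100 ganglia from 5 embryos, library B 100 ganglia from 6 embryos and library D 80 ganglia from 4 embryos, with both sexes in each pool. Total counts of A, B and D were 20181558, 20355302 and 29061086. The values below are counts, or TPM (a length-corrected level, the count divided by gene length and scaled to the same sum in every library), and mean ± SD is over the 3 libraries. The labels give separate embryo pools, so the SD holds differences between pools and technical noise together.

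Ankyrins are adaptor proteins that hold membrane proteins, among them sodium channels and L1-family adhesion molecules, to spectrin under the membrane. Spectrin is a tetramer of alpha and beta chains that joins short actin filaments, capped with the help of adducin, into a periodic lattice along axons. In neurons, ankyrin-G (Ank3) and beta-IV spectrin (Sptbn4) are the paralogs known for the axon initial segment and nodes of Ranvier, while ankyrin-B (Ank2) with alpha-II (Sptan1) and beta-II spectrin (Sptbn1) is known for the axon shaft. Ankyrin-R (Ank1) and beta-I spectrin (Sptb) are best known from red blood cells and also occur in some neurons.

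The sorted cells carried high levels of the spectrins Sptan1 and Sptbn1 and a low level of Sptbn4. Ank3, at 8.28 ± 0.832 TPM, lay near the median of the genes tested. The order of mean levels was Epb41l3, Add1, Sptbn1, Sptan1, Ank2, Ank3, Sptb, Ank1 and Sptbn4, and it covered a range from 185 ± 73.1 TPM for Epb41l3 to 0.200 ± 0.022 TPM for Sptbn4. Of the 9 genes, 7 averaged at least 1 TPM, as did 33.6% of all deposited genes, and 4 averaged at least 100 TPM, as did 3.96% of all deposited genes. Their median level was 20.8 ± 4.22 TPM, beside a median of 11.1 ± 1.98 TPM over the 13530 genes that passed the filter. In pooled RNA, fewer cells with a transcript and less transcript per cell cannot be told apart. Some neighbours in the order did not differ beyond their spread. Add1 and Sptbn1 changed places between libraries (log2 Add1/Sptbn1 -0.04 ± 0.40), and Sptbn1 was above Sptan1 in all 3 libraries by less than 1 SD of the log2 ratio (0.27 ± 0.32). Each other neighbouring pair kept its order in 3 of 3 libraries with a mean log2 difference above its SD, though Ank3 and Sptb were only 0.12 apart in B. The order depended on length correction. By CPM, the count scaled only to library total, Sptbn1 (908 ± 50.1) was above Sptan1 (495 ± 78.9), Add1 (312 ± 67.1) and Epb41l3 (300.2 ± 97.3). Add1 was above Epb41l3 in B and D by CPM. Ank2 averaged 297 ± 63.6 CPM, close to Epb41l3. In D, Ank2 (341 CPM) was above Add1 (237 CPM) and Epb41l3 (198 CPM), and in A and B it was below both. The TPM of Ank2 and Ank3 rest on deposited lengths of 35218 and 33152 bases.

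**Figure D1:**
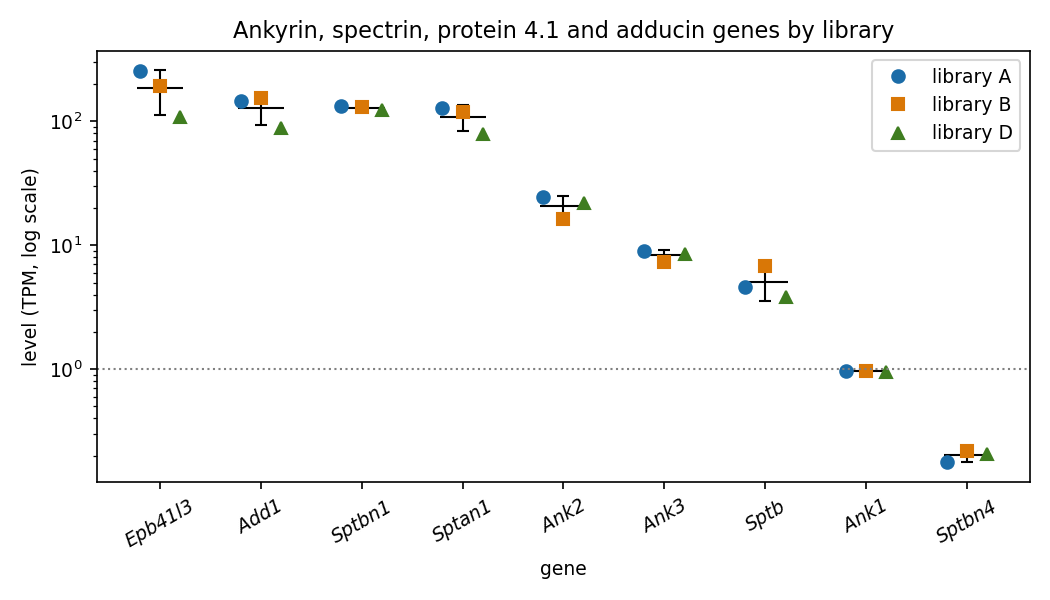
Level of each scaffold gene in libraries A, B and D, in TPM on a log axis, with the mean as a long dash and the SD over 3 libraries as error bars; the dotted line is 1 TPM. Epb41l3, Add1, Sptbn1 and Sptan1 lie near or above 100 TPM, and Ank1 and Sptbn4 lie below 1 TPM in every library.

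The ankyrin family was led by Ank2. Ank1 (ENSMUSG00000031543, chromosome 8, 22974844 to 23150497, plus strand, GRCm38.p2) had 99, 104 and 165 counts in libraries A, B and D, and its level was nearly the same in each library, at 0.965, 0.965 and 0.943 TPM, with exact Poisson 95% intervals that reached 1.18, 1.17 and 1.10 TPM. Ank3 (ENSMUSG00000069601, chromosome 10, 69533772 to 70027438, plus strand) had 2268, 1949 and 3621 counts and 9.02, 7.38 and 8.44 TPM. Ank2 (ENSMUSG00000032826, chromosome 3, 126921606 to 127499259, minus strand) had 6550, 4554 and 9922 counts, which gave 24.5, 16.2 and 21.8 TPM. The ranges of the 3 paralogs did not overlap. Ank1 made up 3.25% ± 0.598 of the summed ankyrin TPM, Ank3 27.8% ± 2.03 and Ank2 69.0% ± 2.62. Within libraries, Ank3 stood 2.49-fold below Ank2 (log2 Ank3/Ank2 -1.32 ± 0.16) and Ank1 21.5-fold below Ank2 (log2 Ank1/Ank2 -4.42 ± 0.31) and 8.62-fold below Ank3 (log2 Ank1/Ank3 -3.11 ± 0.15), each in 3 of 3 libraries.

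Ratios were tested by flipping the signs of the library values in every combination (an exact permutation test, two-sided), with Benjamini-Hochberg adjustment over the 17 pairs compared here. With 3 libraries the smallest p it allows is 0.25 (adjusted p = 0.266), so no pair could pass 0.05. Every ratio below that kept its sign in 3 of 3 libraries had these exact p-values, and its SD is the measure of its error. Of the 9 genes, 5 share exon bases with another deposited gene, by at most 6.37% of their length (Ank1 with the antisense Gm15816, at 6, 2 and 4 counts), and strand use in counting is not given in the sources used here.

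Ankyrin ratios changed in size, not in direction, with the length by which counts were divided. Both genes code for giant ankyrins through a single exon that only the longest isoforms use. In GENCODE M21 the longest coding exon has 6198 bases in Ank2 and 7674 bases in Ank3, against 538 bases in Ank1. The deposited length merges every annotated exon and reached 35218 bases for Ank2 and 33152 bases for Ank3. Without length correction the log2 ratio Ank3/Ank2 was -1.40, and with the longest coding transcript of GENCODE M21 as length it was -0.88. The ratio Ank1/Ank2 was -5.80 without length correction and -5.03 with that transcript, and Ank1/Ank3 was -4.40 and -4.15. That annotation holds at most 8612 coding bases for an Ank3 transcript, most of them in the giant exon, so its lengths may be incomplete for this gene. The counts are per gene, so the deposited values do not separate giant from shorter isoforms.

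Of the beta spectrins, Sptbn1 was dominant and Sptbn4 had the lowest level of the 9 scaffold genes. Sptb (ENSMUSG00000021061, chromosome 12, 76580488 to 76710547, minus strand) had 422, 658 and 600 counts in A, B and D, which gave 4.58, 6.80 and 3.82 TPM, highest in B. Sptbn4 (ENSMUSG00000011751, chromosome 7, 27356383 to 27447686, minus strand) had 13, 17 and 26 counts, which gave 0.176, 0.219 and 0.206 TPM. Its exact Poisson 95% intervals, which cover counting error only, ran from 0.0937 to 0.301 TPM in A, from 0.128 to 0.351 TPM in B and from 0.135 to 0.302 TPM in D, so Sptbn4 was detected at a low level in each library. Sptbn1 (ENSMUSG00000020315, chromosome 11, 30099395 to 30268175, minus strand) had 17533, 18144 and 28032 counts, which gave 132, 130 and 124 TPM. It was the steadiest of the 4 highest genes, with an SD of 4.37 TPM around a mean of 129 TPM.

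Sptbn4 lay 645-fold below Sptbn1 (log2 Sptbn4/Sptbn1 -9.33 ± 0.19), the widest gap among the pairs, and 0.1 TPM added to both genes brought the log2 ratio to -8.75. It was -10.18 without length correction and -10.12 with the longest coding transcript. Sptb lay 26.2-fold below Sptbn1 (log2 Sptb/Sptbn1 -4.71 ± 0.40) and 24.6-fold above Sptbn4 (log2 Sptb/Sptbn4 4.62 ± 0.38). Sptbn5, a further beta spectrin gene, had 1, 0 and 2 counts, under the 10 counts per library required for a ratio.

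**Figure D2:**
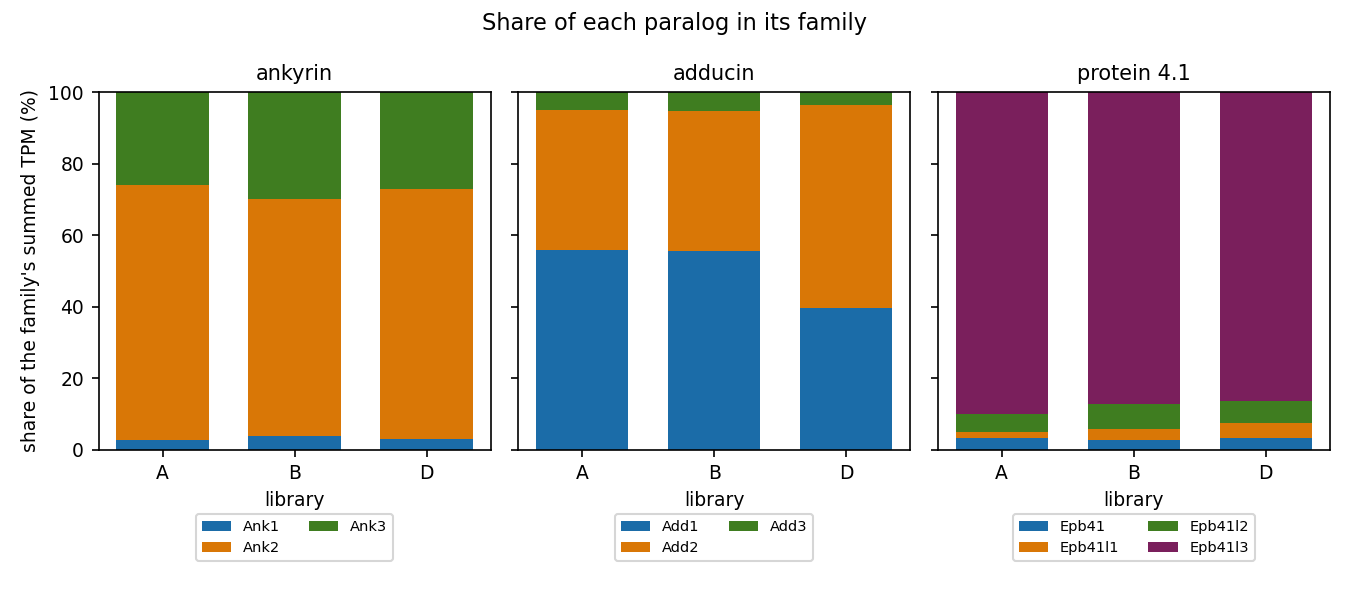
Share of each paralog in the summed TPM of its family (%), 1 bar per library. The families are ankyrin, adducin and band 4.1. Ank2 and Epb41l3 take the largest share of their families in all 3 libraries, whereas Add1 and Add2 change order in library D.

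The start regions of the abundant and the scarce spectrins are shown so that their levels can be set beside the sequence at their starts. They come from RefSeq (GRCm38.p6) and hold 250 bases before to 50 bases after an annotated start, 5′ to 3′ on the strand of the gene, with GC boxes (GGGCGG, read on both strands) in capitals. For Sptbn1 the more upstream of its 2 windows is given as start 1 and the other as start 2. The deposited Sptbn1 gene begins at base 30268175 on the minus strand, upstream of both windows. Sequence at that outermost end of Sptbn1 was therefore not among the windows. For Sptbn4 the most upstream of 4 annotated starts is given.
Sptan1, chr2:29965310-29965609, plus strand: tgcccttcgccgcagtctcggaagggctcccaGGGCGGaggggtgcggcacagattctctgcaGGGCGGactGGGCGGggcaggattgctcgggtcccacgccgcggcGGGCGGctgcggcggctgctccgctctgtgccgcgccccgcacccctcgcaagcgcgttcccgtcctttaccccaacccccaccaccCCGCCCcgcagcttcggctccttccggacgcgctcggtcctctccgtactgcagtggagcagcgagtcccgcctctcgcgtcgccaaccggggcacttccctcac
Sptbn1 start 1, chr11:30219723-30220022, minus strand: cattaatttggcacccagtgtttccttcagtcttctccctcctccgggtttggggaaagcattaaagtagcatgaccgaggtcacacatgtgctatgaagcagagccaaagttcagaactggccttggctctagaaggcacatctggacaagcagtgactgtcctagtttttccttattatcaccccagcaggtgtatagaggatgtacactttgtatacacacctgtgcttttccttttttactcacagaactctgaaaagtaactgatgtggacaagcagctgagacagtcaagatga
Sptbn1 start 2, chr11:30198208-30198507, minus strand: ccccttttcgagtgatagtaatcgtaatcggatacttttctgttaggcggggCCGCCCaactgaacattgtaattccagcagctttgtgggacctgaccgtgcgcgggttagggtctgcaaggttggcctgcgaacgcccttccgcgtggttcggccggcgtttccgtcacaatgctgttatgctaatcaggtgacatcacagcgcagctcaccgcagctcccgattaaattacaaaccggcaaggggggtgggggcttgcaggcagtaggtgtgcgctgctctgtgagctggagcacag
Sptbn4 start 1, chr7:27446540-27446839, minus strand: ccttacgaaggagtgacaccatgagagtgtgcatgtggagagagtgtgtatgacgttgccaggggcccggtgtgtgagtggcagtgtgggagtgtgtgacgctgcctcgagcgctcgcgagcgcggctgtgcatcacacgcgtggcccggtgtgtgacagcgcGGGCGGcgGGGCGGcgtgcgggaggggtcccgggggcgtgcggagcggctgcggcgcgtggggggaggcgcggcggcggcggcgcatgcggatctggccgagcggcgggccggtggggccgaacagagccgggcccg

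The Sptbn4 window was the richest of these in CpG, with 41 CpG dinucleotides and 2 GC boxes, at the 96.5 percentile of CpG number among 32851 windows of the same length. Sptan1 had 37 CpG dinucleotides and 5 GC boxes. The windows of Sptbn1 had 2 CpG dinucleotides and no GC box at start 1, and 21 CpG dinucleotides and 1 GC box at start 2. A GC box in either orientation occurred in 35.7% of all windows, and the median window had 7 CpG dinucleotides. Among the 16 windows the highest CpG number was thus at a start of the gene with the lowest level, though the other 3 starts of Sptbn4 had 33, 24 and 1. Gene counts sum over all starts, so no count can be assigned to 1 start. The start table held windows for 7 of the 9 genes, 16 starts in all, and Ank1 and Ank3 were not among them. The TATA box TATAAA, found in 13.6% of windows, was present only at the most upstream start of Ank2 among the 16, and the GATA motif AGATAA, found in 11.2% of windows, at none of them (both strands searched, each motif counted on its own).

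Sptan1, the alpha chain that pairs with all non-erythroid beta spectrins, was high in every library and lay below Sptbn1 by less than the spread between libraries. Sptan1 (ENSMUSG00000057738, chromosome 2, 29965560 to 30031451, plus strand) had 11131, 10744 and 11756 counts in A, B and D, which gave 128, 118 and 79.5 TPM. Library D was the lowest. The log2 ratio Sptan1/Sptbn1 was -0.04, -0.14 and -0.64 in A, B and D (mean -0.27 ± 0.32), a difference below its SD that was -0.09 without library D. It exceeded its SD under other lengths, at -0.89 without length correction and -0.70 with the longest coding transcript.

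The pair of initial segment paralogs was then set against the pair of shaft paralogs. The summed TPM of Ank3 and Sptbn4 averaged 17.7-fold below that of Ank2 and Sptbn1 (log2 -4.14 ± 0.11), in 3 of 3 libraries. Nearly all of the first sum was Ank3, which exceeded Sptbn4 41.3-fold (log2 Ank3/Sptbn4 5.37 ± 0.30). In the shaft pair the spectrin led: Ank2 was 6.27-fold below Sptbn1 (log2 Ank2/Sptbn1 -2.65 ± 0.31). With the longest coding transcript as length, the log2 ratio of the sums was -3.43, and that of Ank3 to Sptbn4 was 6.95. Without length correction, log2 Ank2/Sptbn1 was -1.64.

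**Figure D3:**
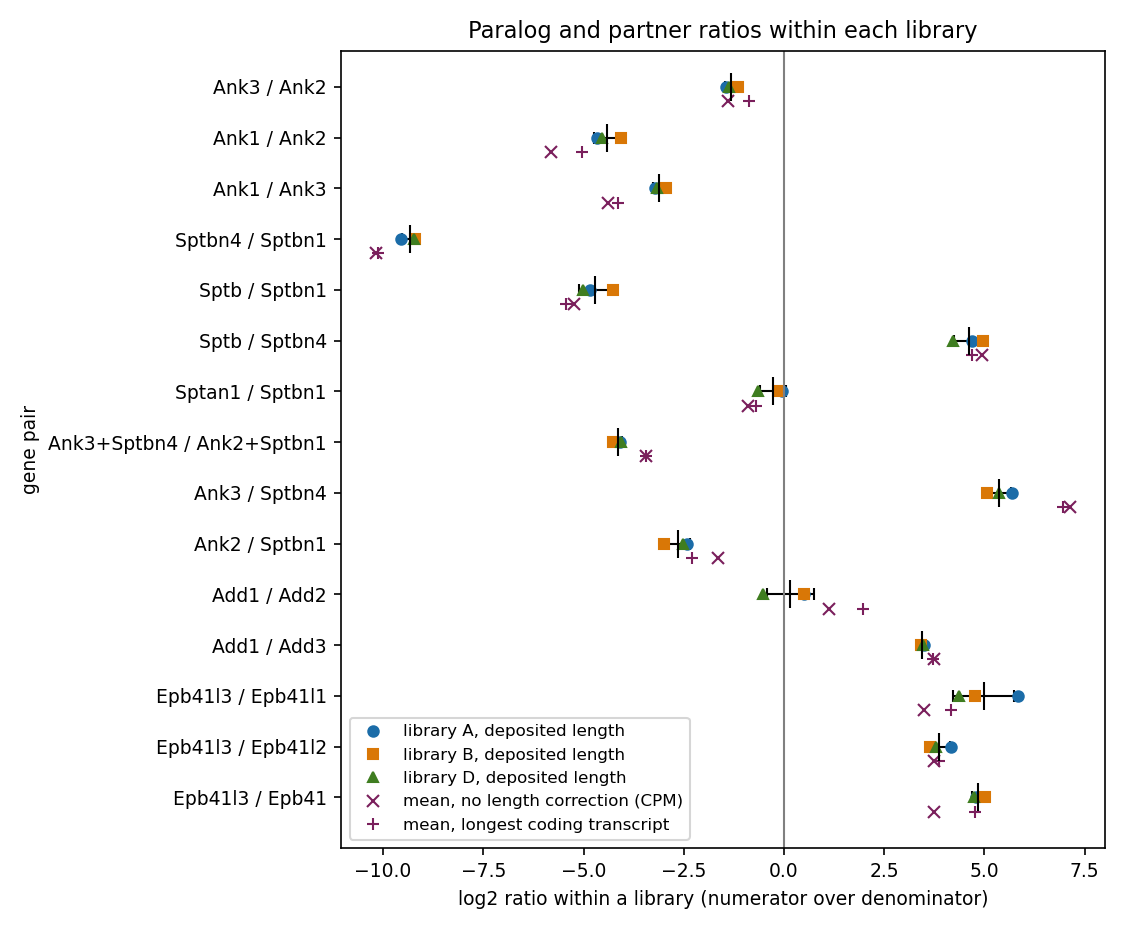
Log2 ratio within each library for gene pairs compared, numerator over denominator, with TPM from deposited lengths as symbols per library, their mean and SD in black, and the mean ratio without length correction or with the longest coding transcript as crosses. Sptbn4 over Sptbn1 lies near -9, and Add1 over Add2 is the only plotted pair whose libraries fall on both sides of 0.

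Adducin and band 4.1 proteins link spectrin to actin, and their genes Epb41l3 and Add1 were among the highest of the 9 by TPM. Of the paralogs compared with them below, all but Add2 averaged 12.5 TPM or less. Epb41l3, which encodes the 4.1B protein known for axon-glia junctions beside nodes (ENSMUSG00000024044, chromosome 17, 69156810 to 69289985, plus strand), had 7902, 6333 and 5751 counts in A, B and D and 254, 194 and 108 TPM. It varied most of the 9 genes in TPM, with D lowest and A highest. It took 87.9% ± 2.00 of the summed TPM of the 4 classical band 4.1 genes. Epb41l3 exceeded Epb41l2 14.6-fold (log2 3.87 ± 0.27), Epb41 28.8-fold (log2 4.85 ± 0.15) and Epb41l1 31.7-fold (log2 4.98 ± 0.76), each in 3 of 3 libraries. Without length correction the last 2 log2 ratios were 3.75 and 3.50.

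Add1, the widely expressed alpha-adducin that caps actin filaments and recruits spectrin (ENSMUSG00000029106, chromosome 5, 34573664 to 34632308, plus strand), had 6692, 7470 and 6892 counts and 146, 155 and 87.8 TPM. Library D was again the lowest. Its partner Add2, beta-adducin of neurons and red blood cells, was instead highest in D, with 102, 110 and 126 TPM in A, B and D. The log2 ratio Add1/Add2 was therefore 0.51, 0.49 and -0.53 in A, B and D (mean 0.16 ± 0.59, exact p = 1, adjusted p = 1), and its mean was 0.50 without D. The level of Add1 relative to Add2 also depended on length, with a mean log2 ratio of 1.12 without length correction and 1.97 with the longest coding transcript. For Add2 that transcript has 8182 bases, whereas the deposited length is 3119 bases. The value of 1.97 thus divides Add2 counts by bases that were not all counted, and may understate Add2. Add3, gamma-adducin, averaged 11.8 ± 3.38 TPM, 10.97-fold below Add1 (log2 Add1/Add3 3.46 ± 0.03). That ratio was the steadiest of all 17.

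Whether any scaffold gene differed between the pools by more than other genes of its level was asked with an edgeR goodness-of-fit test over all 13530 genes that passed the filter. With Benjamini-Hochberg adjustment at 0.05, edgeR called 0.177% of the genes tested, and 0 of the 9 scaffold genes. At an unadjusted p under 0.05 the share was 6.11% of all genes and again 0 of 9, and DESeq2's dispersion outliers held 0 of 9. The test has little power here: in simulated data with these means and library sizes, of the genes shifted in 1 library it found 0% of 67 at 2-fold, 26.9% of 67 at 4-fold and 86.4% of 66 at 8-fold. Shifted genes averaged at least 10 CPM, and all genes were simulated at a common dispersion. These shares therefore do not cover Ank1 (5.23 CPM) or Sptbn4 (0.791 CPM). The span between the highest and lowest library in log2 CPM was widest for Epb41l3 (0.89, adjusted p = 1.00 in edgeR) and Ank2 (0.75), and narrowest for Sptbn1 (0.26) and Ank1 (0.30). The median span was 0.51 for the 9 genes and 0.68 over all genes tested. This order of spans did not hold with each library's trend in gene length removed, where Sptb (0.85) and Sptbn4 (0.78) were widest and Ank2 (0.21) was narrowest. The constant added to counts before taking logs was also smaller there.

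The libraries also differed in how counts were spread over short and long genes, and scaffold genes lay both with and against the median of their length class. In D minus the mean of A and B, the median log2 difference was 0.76 for genes under 1000 bases, -0.20 for genes of 4000 to 8000 bases, -0.09 for genes of 8000 to 16000 bases and 0.09 for longer genes. Epb41l3 (4109 bases) and Add1 (6066 bases) were lower in D by this measure, at -0.70 and -0.44, further than the median of their class. Ank2, Ank3 and Sptbn1, all over 16000 bases, were at 0.46, 0.38 and 0.25 in D, also further than theirs. In B minus the mean of A and D, Ank2 stood at -0.67 and Ank3 at -0.40, in the direction of their class median of -0.31. Sptb went against its class in B, at 0.54 where the class median was -0.09. In D, Ank1 (0.30) and Sptbn4 (0.37) went against a class median of -0.09. In A minus the mean of B and D, Ank1 (-0.16), Sptb (-0.33) and Sptbn4 (-0.40) went against a class median of 0.24, and Sptbn1 (-0.12) against one of 0.35. Removing each library's trend in length made the span smaller for 5 of the 9 genes and larger for 4. It became 0.21 for Ank2 in place of 0.75, 0.32 for Ank3 in place of 0.52, 0.67 for Epb41l3 in place of 0.89, and 0.32 for Add1 in place of 0.49. In the other direction it became 0.85 for Sptb in place of 0.58, and 0.78 for Sptbn4 in place of 0.51. The constant added to counts before taking logs was smaller after this step than before it. The change for Sptbn4, at 13, 17 and 26 counts, therefore holds both differences together. The SD of log2 Ank1/Ank2 became 0.16 in place of 0.31, and that of log2 Add1/Add2 0.52 in place of 0.59. After this step 0 of the 9 genes passed the adjusted threshold in edgeR, as before it.

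**Figure D4:**
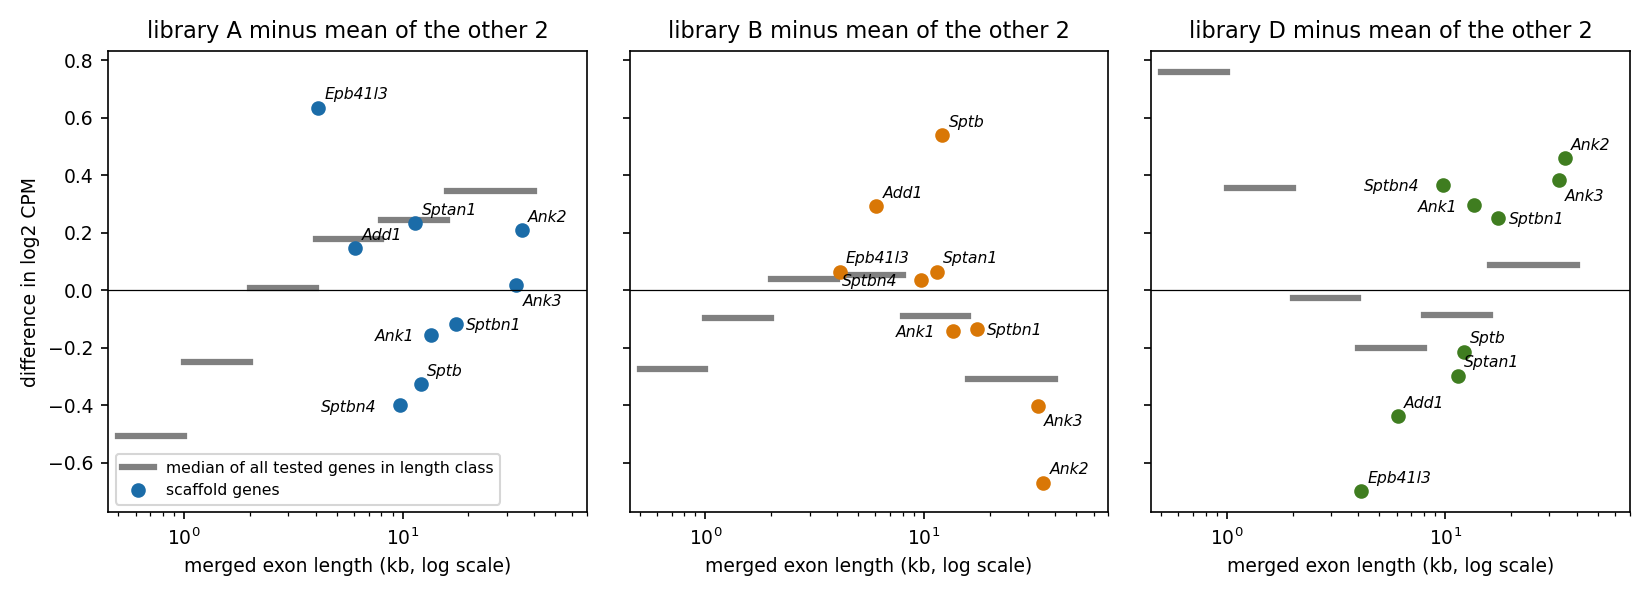
Difference in log2 CPM of each library from the mean of the other 2, plotted against merged exon length in kb on a log axis; points are the 9 scaffold genes and grey bars the median of all tested genes in a length class. In library D the short classes lie above 0 and Epb41l3 and Add1 below it, and in library B Ank2 and Ank3 lie lowest.

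Partners of the scaffold were taken from 8 lists holding 85 genes. Of these, 79 passed the filter on low counts, and 0 of the 79 passed the adjusted edgeR threshold between libraries, beside 0.177% of all genes tested. At an unadjusted p under 0.05, edgeR held 2 of the 79, beside 6.11% of all genes tested. These were the sodium channel gene Scn9a and Nrcam, both of the initial segment list and named after their values were seen. Of the 22 genes of the initial segment and node, 19 reached 1 TPM, and the list median was 12.0 ± 2.43 TPM. Over all deposited genes 33.6% reached 1 TPM, the share to set beside this list and each list below. Its highest members were Fgf13 (1002 ± 31.3 TPM), a sodium channel binding protein, Csnk2b (317 ± 62.0 TPM), the regulatory subunit of casein kinase 2, Scn3b (191 ± 92.3 TPM), a sodium channel beta subunit, and Schip1 (171 ± 8.17 TPM), an ankyrin-binding protein. Scn4b was lowest, with 0, 13 and 1 counts, where 0 counts in A allow up to 0.0801 TPM. Also named after their values were seen were Nrcam (41.8 ± 22.8 TPM) and Nfasc (7.17 ± 1.19 TPM), adhesion molecules that bind ankyrin-G. Trim46 (43.3 ± 17.2 TPM), which bundles microtubules of the initial segment, was named in the same way. A level per gene does not show whether an initial segment was present.

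All 9 paranode and juxtaparanode genes reached 1 TPM (list median 30.1 ± 1.93 TPM), beside 33.6% of all deposited genes. Kcnab2, a potassium channel beta subunit, led at 79.4 ± 26.9 TPM, before the contactins Cntn1 (70.8 ± 19.8 TPM) and Cntn2 (60.1 ± 12.3 TPM). Cntnap2, the juxtaparanodal partner of Cntn2, followed at 46.5 ± 7.30 TPM, and Dlg2 was lowest at 1.17 ± 0.536 TPM. Among other membrane proteins that bind ankyrins, 12 of 14 reached 1 TPM (median 6.88 ± 3.01 TPM). The sodium pump gene Atp1b1 was highest (167 ± 11.02 TPM), the adhesion genes L1cam (117 ± 49.2 TPM) and Cd44 (33.7 ± 8.41 TPM) were among the highest, and Slc4a1, the anion exchanger that ankyrin-R holds in red blood cells, was lowest at 0.069 ± 0.052 TPM.

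Of the 12 actin-lattice genes, 11 reached 1 TPM (median 37.1 ± 7.83 TPM). Actb led at 7795 ± 1122 TPM, followed by Tpm4 (126 ± 43.1 TPM), Tmod3 (97.5 ± 30.8 TPM) and Tpm1 (95.02 ± 39.5 TPM), which encode a pair of tropomyosins and a filament-capping tropomodulin, and Myh14 was lowest (0.875 ± 0.554 TPM). Calpains, which cut spectrin, and calmodulin, which binds it, all reached 1 TPM (8 of 8, median 87.5 ± 11.1 TPM), from Calm2 (6713 ± 609 TPM), Calm3 (396 ± 80.3 TPM) and the small calpain subunit Capns1 (110 ± 14.2 TPM) down to Capn5 (16.2 ± 7.24 TPM). All 7 genes linked to ankyrin-B in transport did so as well (median 80.4 ± 39.8 TPM). They were led by the kinesin Kif5a (282 ± 136 TPM), the dynactin subunit Dctn4 (156 ± 38.3 TPM), Kif5c (107 ± 36.3 TPM) and Dctn1 (80.4 ± 39.8 TPM), and Rabgap1l was lowest (7.43 ± 2.98 TPM). In the list of further adducin and band 4.1 genes, 9 of 10 reached 1 TPM (median 9.47 ± 2.54 TPM). Add2 (113 ± 12.4 TPM), the actin bundler Dmtn (87.0 ± 40.6 TPM), Epb41l4a (28.5 ± 5.46 TPM) and Epb41l2 (12.5 ± 4.06 TPM) led it, and Epb42, a red blood cell gene with 7, 0 and 2 counts, was lowest.

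**Figure D5:**
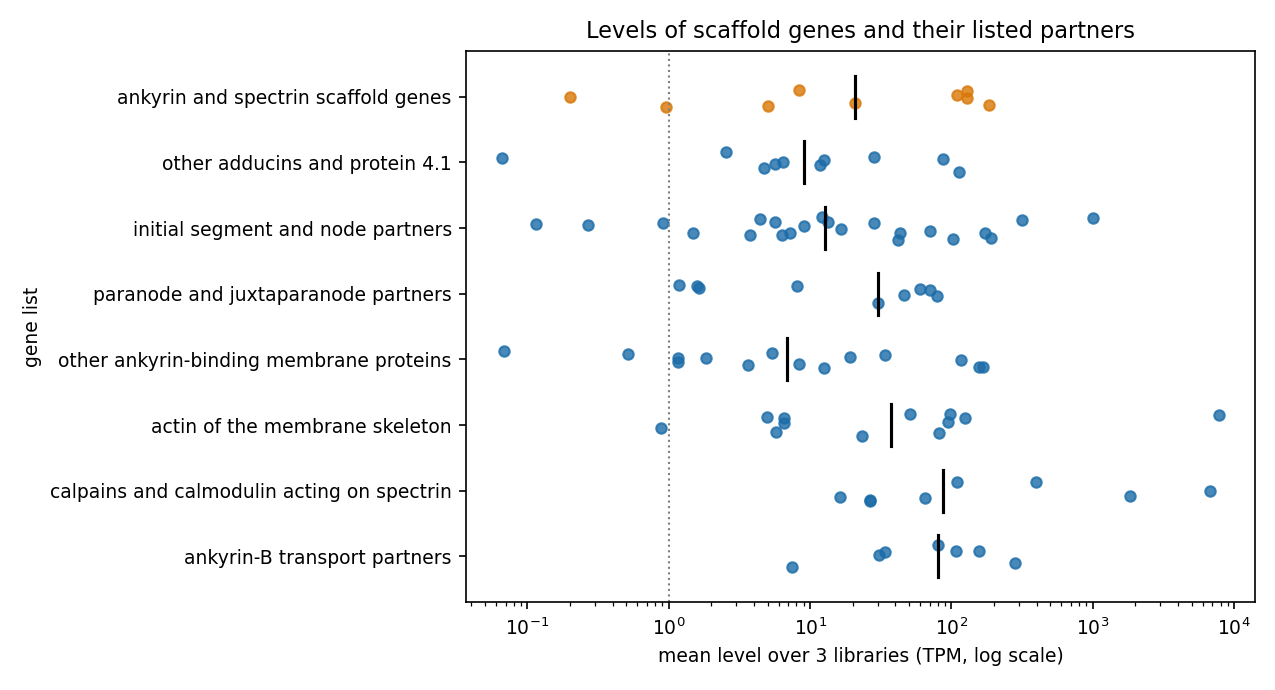
Mean level over 3 libraries, in TPM on a log axis, of each scaffold gene (top row) and of each gene of the partner lists other than the further spectrins; vertical bars are the median of the plotted means and the dotted line is 1 TPM. The scaffold genes lie between 0.200 and 185 TPM, and the highest initial segment partner is Fgf13 at 1002 TPM.

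Markers of the labelled cells were present and those of red blood cells were uneven. The 10 sensory neuron markers all exceeded 1 TPM and had a median of 1449 ± 175 TPM. Because Ank1, Sptb, Epb41, Add2 and Dmtn are also red blood cell genes, 15 erythroid markers were set beside them. Of these, 7 reached 1 TPM, all of them globin genes or Alas2, and the list had a summed level of 196 TPM in A, 108 TPM in B and 363 TPM in D. Among the erythroid markers below 1 TPM, Gata1 had 0, 1 and 3 counts, Rhag 1, 0 and 1, and Slc4a1 2, 1 and 8. The globin markers that passed the filter are under 1000 bases long. The median of all tested genes of that length was 0.76 in D minus the mean of A and B. Ank1 was at 0.965, 0.965 and 0.943 TPM in A, B and D, though by CPM it was highest in D, at 4.91, 5.11 and 5.68. Add2, at 102, 110 and 126 TPM, was highest in D, where the sum was highest. Sptb and Dmtn (94.7, 123 and 43.1 TPM) were highest in B, where the sum was lowest, and Epb41 was highest in A, at 9.21, 5.96 and 4.06 TPM. In skeletal muscle, which uses small Ank1 isoforms, 1 of 7 markers reached 1 TPM, Acta1 at 19.8 ± 4.02 TPM, while Myog had 0 counts throughout, for which the upper limits were 0.265, 0.252 and 0.155 TPM. Schwann and satellite glia markers summed to 490, 786 and 880 TPM in A, B and D, with 7 of 10 at 1 TPM and Gfap at 0, 1 and 1 counts. Mesenchymal markers summed to 19.2, 70.6 and 19.3 TPM, with 6 of 7 at 1 TPM, and so were highest in B as Sptb was. Endothelial markers summed to 4.77, 4.03 and 3.27 TPM and macrophage markers to 6.00, 3.26 and 1.97 TPM, with 1 of 5 and 2 of 5 at 1 TPM. In edgeR, 2 of the 6 erythroid markers that passed the filter and 1 of the 7 mesenchymal markers, Col1a1, differed between libraries past the adjusted threshold. The share over all genes tested was 0.177%. The part of these cells in the levels of the scaffold genes was not tested.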

How the data were processed

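RNA-seq libraries were made from sorted, pooled ganglion cells with a SMARTer kit, per the labels' protocols, which mention no molecular identifiers. The tools and build named are Subread, featureCounts 1.4.5 and GRCm38.p2, per the submitters' processing notes; the counting options, strand included, are not given in the sources. The deposited tables give raw counts per gene, CPM (scaled to library total) and RPKM (scaled also to length) with gene length. The deposited CPM and RPKM values were checked against the counts and not used further.

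TPM was computed from count and deposited length, which equals the merged exon length. Symbols came from GENCODE M21 (40254 of 41388 IDs matched, 1 gene through a RefSeq synonym), start windows from RefSeq (GRCm38.p6). Pair ratios needed 10 counts of both genes in each library and were tested by exact sign flips in Python 3.11.15. Differences among libraries came from edgeR 4.0.16 (R 4.3.3), with filterByExpr, TMM scaling, a negative binomial fit of the mean alone at the trended dispersion, and goodness of fit by deviance with Benjamini-Hochberg adjustment at 0.05, checked on simulated data. With 1 group the quasi-likelihood test could not be used. DESeq2 1.42.0 was an alternative. Poisson intervals are exact at 95%, a count of 0 is given an upper limit of 3 counts, and both cover counting error only. Alternatives were other lengths, normalizations, filters and dispersions, equal depth, and each library left out.

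The members and lists were chosen with earlier results of these data known. All members are named; from each partner list the 4 highest genes, the lowest gene, genes with no count in a library and pair partners are named. Some of these items are not reported here.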

Additional observations from a re-analysis of the deposited data

How the results depend on the processing

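Of the pair ratios recomputed under the alternatives, 149 values kept their direction; the exact p could not pass 0.05 under any of them. The exception was log2 Add1/Add2, which turned to -0.016 without library A and -0.0087 without library B, and was 0.50 without D. The levels of Ank1 (1.02 TPM) and Sptbn1 (138 TPM) moved by more than 1 SD when mitochondrial, ribosomal and hemoglobin genes were left out, and the other 7 levels did not. The number of genes called by edgeR was 24, against 35 without the filter on low counts, 19 with library totals as scale, 24 with DESeq2's size factors, 32 with a common dispersion, and 18 by DESeq2's dispersion outliers. It was 55 with the length trend removed, and 2 to 27 with a library left out (7 without A, 2 without B, 27 without D). The scaffold genes called stayed at 0 in each of these. The causes of these shifts were not tested. Coding length from GENCODE M21 and the removal of the length trend from pair ratios were added after seeing the data, and RefSeq protein length was not run. No paired analysis was possible because the libraries form 1 group. Depth limits Sptbn4, at 13 to 26 counts per library, most of all 9 genes.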
